A study of Mus musculus with 12 samples.

Results

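The 8 genes described here belong to the angiotensin and the vasopressin-oxytocin hormone systems and were measured in mouse dorsal root ganglia, which hold the cell bodies of the body's sensory neurons. They are 3 angiotensin receptors (Agtr1a, Agtr1b and Agtr2), the hormone precursor (Agt), the enzyme that makes the active peptide (Ace), a binding protein for prorenin (Atp6ap2), a vasopressin receptor (Avpr1a) and the oxytocin receptor (Oxtr). They were chosen by name out of 55416 genes counted in each library. The choice was made with earlier results of the comparison of knockout with control ganglia known, so the values of these genes in that comparison, and in its subsets, are a description without a test.

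Poly(A) RNA was sequenced from 12 libraries of adult C57Bl6 mice, 6 labelled iKO and 6 control. The iKO animals carried Rosa26Cre ERT2, a Cre recombinase activated by tamoxifen and expressed from a locus active in most cell types, together with Fl/Fl Prdm12, and were studied 1 month after tamoxifen. Prdm12 encodes a zinc finger protein known for its need in the formation of pain-sensing neurons. Tamoxifen also went to 4 of the controls: control 1 with Cre and 1 floxed allele, controls 2 and 3 without Cre and with 1 floxed allele, and control 4 with Cre and 0 floxed alleles. Controls 5 and 6 shared the Cre and the Fl/Fl Prdm12 of the iKO animals and were injected with corn oil only. Females were controls 1 and 2 and iKO 1 to 3, and the other 7 libraries were male. Nothing in the labels says whether a library is 1 animal, so every p-value here is a statement about the spread of these 12 libraries, which may be technical.

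Libraries held 13943784 to 20377766 counts, and levels are given as counts-per-million of the scaled library total (CPM). Prdm12 was at 19.9% of its control level in iKO libraries (117 ± 29.4 and 23.3 ± 2.51 CPM, SD, n = 6 each), and control 6, at 64.6 CPM, had 50.5% of the mean of the other controls. General sensory neuron markers summed to 12181 to 16353 CPM in controls and 11096 to 16046 in iKO libraries, and 0 markers of any cell type list were listed at 0 in all libraries. The library labelled iKO 1 stood apart. It had the lowest neuronal sum of the 12, at 11096 CPM, and the highest sums of endothelial, fibroblast and macrophage markers (250, 3224 and 313 CPM, where the other 5 iKO libraries had at most 122 for endothelium). A gene is said to be called where its adjusted p, over all genes tested with edgeR, was under 0.05.

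Angiotensinogen, the product of Agt, is cut by renin to angiotensin I, which angiotensin-converting enzyme trims to angiotensin II. Angiotensin II acts through AT1 receptors, which couple to Gq proteins and phospholipase C, and through the AT2 receptor, which often opposes them. Mice have a pair of AT1 genes, Agtr1a and Agtr1b, where humans have a single one. The V1A vasopressin receptor and the oxytocin receptor are related to each other and also couple to Gq, and both hormone systems have been studied in sensory ganglia for their part in pain.

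Since Agtr1a and Agtr1b are close copies, the stretch of their coding sequence that differs most is shown first. Both coding sequences had 1080 bases and aligned with 0 gaps, and 981 bases (90.8%) were identical. The stretch of 120 bases that differed most lay near the 3′ end, at coding bases 948 to 1067 counted from the A of the start codon, with 22 differences that are in capitals (GENCODE M21 transcripts, GRCm38).
Agtr1a: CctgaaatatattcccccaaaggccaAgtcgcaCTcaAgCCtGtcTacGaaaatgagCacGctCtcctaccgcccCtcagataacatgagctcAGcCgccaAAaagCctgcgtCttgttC
Agtr1b: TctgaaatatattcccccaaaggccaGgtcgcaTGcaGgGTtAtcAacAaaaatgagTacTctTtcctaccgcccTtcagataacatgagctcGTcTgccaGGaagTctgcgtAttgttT
The longest run that both genes share without a difference had 66 bases, at coding bases 75 to 140, and a read that lies wholly inside it fits both genes.
Shared by Agtr1a and Agtr1b: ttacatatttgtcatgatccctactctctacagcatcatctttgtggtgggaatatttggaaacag
Of all windows of 50 bases in the Agtr1a coding sequence 3.2% were also in the Agtr1b transcript, and 0% of windows of 100 bases were. The sources used here give neither the read length nor how reads that fit several genes were treated, so counts of the pair are uncertain to that extent. Avpr1a and Oxtr were identical in 58.9% of their aligned coding columns and shared 0% of such windows of 50 bases.

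Of the AT1 pair, Agtr1a (ENSMUSG00000049115, chromosome 13) was higher in every iKO library than in any control. Its levels were 26.5, 22.7, 29.5, 25.0, 22.1 and 23.9 CPM in controls 1 to 6, from 304 to 500 counts per library. In iKO 1 to 6 they were 38.3, 47.9, 47.0, 48.4, 44.5 and 44.1 CPM, from 707 to 943 counts. The lowest iKO library, iKO 1, was thus above the highest control, control 3, and the other 5 iKO libraries lay within 44.1 to 48.4 CPM. The means were 25.0 ± 2.73 and 45.0 ± 3.73 CPM (SD, n = 6 each), a log2 fold change of 0.86 ± 0.08 (SE) or 1.81-fold. The gene was called, and without iKO 1 its log2 fold change was 0.89.

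Agtr1b (ENSMUSG00000054988, chromosome 3), the second AT1 gene, was at 7.86, 8.10, 8.74, 7.10, 8.43 and 6.42 CPM in controls 1 to 6 (103 to 148 counts). In iKO 1 to 6 it was at 3.69, 5.43, 4.98, 7.52, 4.91 and 5.35 CPM (69 to 126 counts). The groups overlapped through 1 iKO library: iKO 4 exceeded controls 4 and 6, and the other 5 lay below every control. The means were 7.77 ± 0.868 and 5.31 ± 1.25 CPM (SD, n = 6 each), with a log2 fold change of -0.53 ± 0.14 (SE) that was not called. Without iKO 4 it was -0.66 and was called, and without iKO 1 it was -0.46 and was not.

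**Figure D1:**
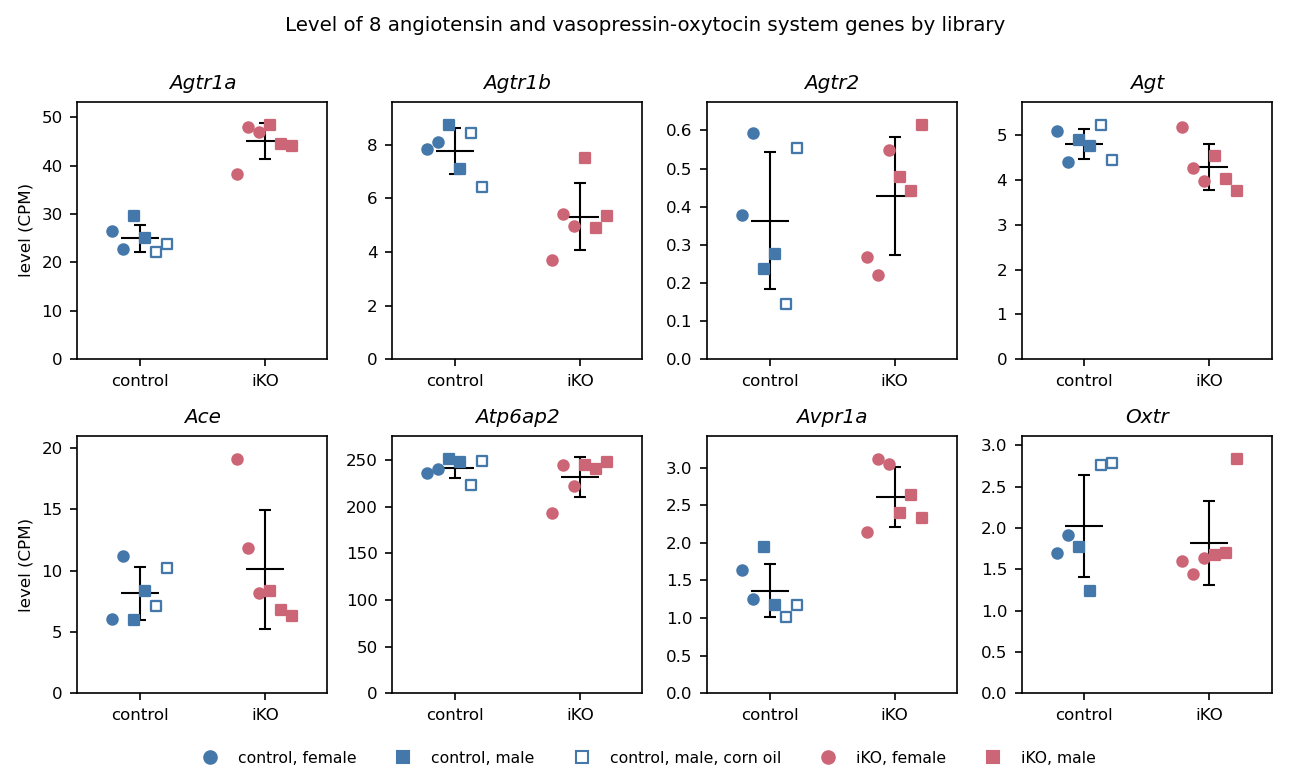
Level of each of the 8 genes in every library, in CPM on axes that start at 0, with circles for females, squares for males and open squares for corn oil controls; the bars are the mean ± SD of 6 libraries. All 6 iKO libraries lie above all 6 controls for Agtr1a and Avpr1a, and the groups overlap for the other 6 genes.

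Set against each other per length of exon, the 2 AT1 genes stood in a different proportion in the groups. The ratio of Agtr1a to Agtr1b, both in CPM per kb, was 2.60, 2.16, 2.60, 2.72, 2.02 and 2.88 in controls 1 to 6. It was 8.01, 6.79, 7.27, 4.96, 6.99 and 6.35 in iKO 1 to 6, so that the lowest iKO library, iKO 4, still exceeded the highest control. Agtr1b made up 28.8 ± 2.86% of the summed pair in controls and 13.1 ± 1.97% in iKO libraries (SD, n = 6 each). The sum of the pair went from 12.6 ± 1.17 to 18.7 ± 1.82 CPM per kb, with controls at 11.6 to 14.7 and iKO libraries at 15.5 to 20.9. Within the groups the sign of their relation was not negative: after subtracting group means their log2 CPM correlated at r = 0.55 over the 12 libraries, which share 1 scaling of depth, against r = -0.64 before. Without iKO 1 these values were 0.29 and -0.72.

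**Figure D2:**
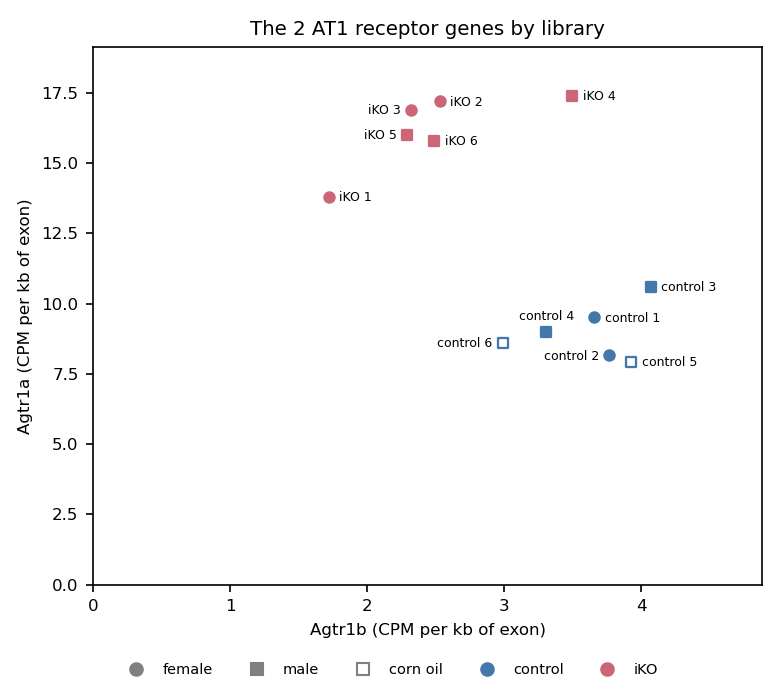
Agtr1a (vertical axis) against Agtr1b (horizontal axis), both in CPM per kb of exon, with 1 point for each of the 12 libraries and both axes starting at 0. Controls sit at 2.02 to 2.88 times as much Agtr1a as Agtr1b and iKO libraries at 4.96 to 8.01 times; iKO 4 is the iKO library with the most Agtr1b and iKO 1 the one with the least of both.

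Agtr2 (ENSMUSG00000068122, chromosome X), the AT2 receptor gene, was at the edge of detection. It had 2 to 9 counts per control library and 4 to 11 per iKO library, which is 0.364 ± 0.179 and 0.428 ± 0.155 CPM (SD, n = 6 each). These groups overlapped almost completely, from 0.145 to 0.593 CPM in controls and from 0.222 to 0.614 in iKO libraries. It is the 1 gene of the 8 that did not pass the filter on low counts, and no fold change is given for it.

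Upstream of the receptors the ganglia differed little between the groups. Agt (ENSMUSG00000031980, chromosome 8) was at 5.10, 4.41, 4.90, 4.76, 5.23 and 4.44 CPM in controls 1 to 6 and at 5.19, 4.27, 3.99, 4.53, 4.03 and 3.75 in iKO 1 to 6. Its iKO libraries were spread around and below the controls, with iKO 1 and iKO 4 within the control range, and the log2 fold change was -0.17 ± 0.11 (SE), not called. Relative to summed satellite glia markers, Agt was at 1.34 to 1.64 per 1000 CPM in controls and 1.12 to 1.43 in iKO libraries.

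Atp6ap2 (ENSMUSG00000031007, chromosome X) encodes the (pro)renin receptor, which is also an accessory protein of the vacuolar proton pump, and was by far the most abundant of the 8. It ranged from 223 to 251 CPM in controls and from 193 to 248 in iKO libraries. The 193 CPM of iKO 1 was the lowest value of all 12, and the other 5 iKO libraries lay between 222 and 248 CPM. Its log2 fold change was -0.04 ± 0.06 (SE) and 0.00 without iKO 1.

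Ace (ENSMUSG00000020681, chromosome 11) varied widely within both groups, and most within the iKO group. It was at 6.04, 11.2, 6.02, 8.34, 7.12 and 10.2 CPM in controls 1 to 6. In iKO 1 to 6 it was at 19.1, 11.9, 8.17, 8.35, 6.80 and 6.33 CPM, so the highest value of the study was in iKO 1 and the rest of the iKO group lay within or near the control range. The log2 fold change was 0.17 ± 0.25 (SE) and 0.00 without iKO 1. ACE is known as an enzyme of the vessel wall, and iKO 1 also had the highest sum of 8 endothelial markers, 250 CPM against 136 to 153 in controls and 114 to 122 in the other iKO libraries. The part of vessel content in the Ace values was not tested. Per 1000 CPM of these markers Ace was at 76.5 in iKO 1, at 40.7 to 76.2 in controls and at 54.6 to 97.7 in the 6 iKO libraries together. In bulk RNA, fewer cells of a type and less RNA per cell cannot be told apart. Exons of Ace overlap a gene on the opposite strand, Gm11651, over 5.58% of their bases, but that gene had 1 count in all libraries against 1840 for Ace.

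**Figure D3:**
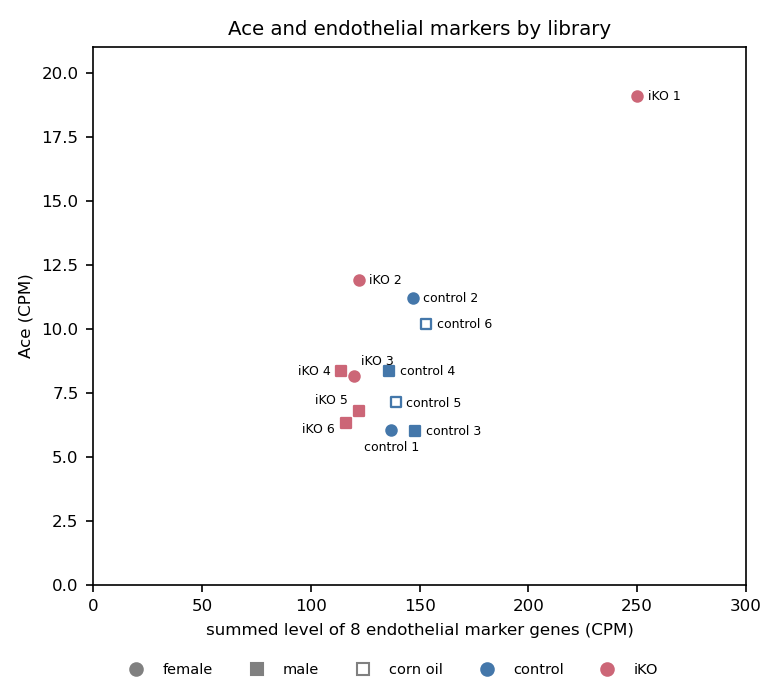
Ace (vertical axis, CPM) against the summed level of 8 endothelial marker genes (horizontal axis, CPM), with 1 point for each library and both axes starting at 0. The point at the upper right is iKO 1, at 250 and 19.1 CPM; the other 11 libraries lie between 114 and 153 CPM of endothelial markers and between 6.02 and 11.9 CPM of Ace.

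Among the receptors for the pituitary hormones, Avpr1a (ENSMUSG00000020123, chromosome 10), which encodes the V1A vasopressin receptor, was higher in every iKO library than in any control. Its levels were 1.64, 1.25, 1.95, 1.17, 1.02 and 1.17 CPM in controls 1 to 6, from 14 to 33 counts per library. In iKO 1 to 6 they were 2.14, 3.11, 3.04, 2.39, 2.64 and 2.33 CPM, from 38 to 61 counts. The gap between the groups was narrow, from 1.95 CPM in control 3 to 2.14 CPM in iKO 1. The means were 1.37 ± 0.353 and 2.61 ± 0.395 CPM (SD, n = 6 each), a log2 fold change of 0.90 ± 0.18 (SE) or 1.86-fold. At these counts single libraries decided the call: it held without control 3 (1.04), control 5 (0.85) or iKO 1 (0.95), and was lost on leaving out any of the other 9 libraries, with log2 fold changes between 0.84 and 0.96.

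Oxtr (ENSMUSG00000049112, chromosome 6), the oxytocin receptor gene, was at 1.70, 1.91, 1.77, 1.24, 2.76 and 2.78 CPM in controls 1 to 6 (18 to 45 counts). In iKO 1 to 6 it was at 1.60, 1.44, 1.64, 1.67, 1.70 and 2.83 CPM (26 to 46 counts). High values stood in both groups, in controls 5 and 6 and in iKO 6, and the remaining 9 libraries lay between 1.24 and 1.91 CPM. The log2 fold change was -0.11 ± 0.22 (SE), and 0.13 without the corn oil controls.

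**Figure D4:**
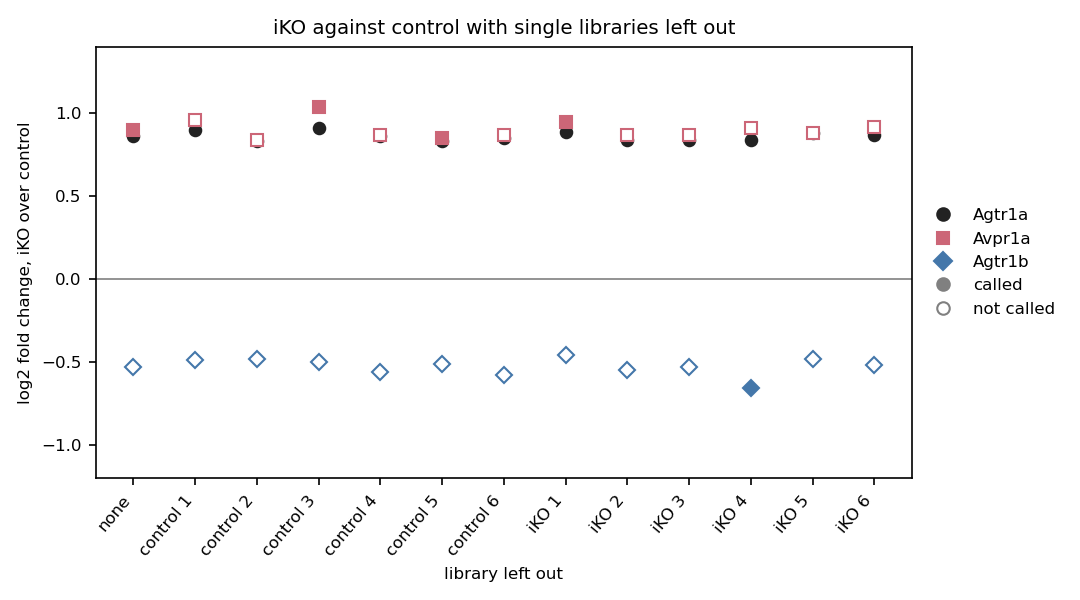
Log2 fold change of iKO over control (vertical axis) for Agtr1a, Avpr1a and Agtr1b with all libraries and with each library left out in turn (horizontal axis). Filled symbols are called at an adjusted p under 0.05 over all genes tested and open ones are not: Agtr1a stays between 0.83 and 0.91 and is called each time, Avpr1a lies between 0.84 and 1.04 and is called in 3 of 12, and Agtr1b lies between -0.66 and -0.46 and is called only without iKO 4.

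Across all genes, 155 of 16384 (0.946%) were called between iKO and control, 88 higher (0.537%) and 67 lower (0.409%). Of the 7 tested genes of the 2 hormone systems, Agtr1a and Avpr1a were called, both higher, and 0 lower. Their median log2 fold change was -0.04, where that of all genes was 0.00, and 3 of the 7 were positive. Groups did not overlap in CPM for the same 2 genes, and for 253 of all tested genes (1.54%). Because the comparison guided the choice of these genes, nothing is read from these shares.

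Per length of exon, the control levels spanned a wide range. Atp6ap2 came first with 92.1 ± 4.07 CPM per kb, followed by Agtr1a with 8.96 ± 0.981, Agtr1b with 3.62 ± 0.404, Agt with 2.54 ± 0.178 and Ace with 1.54 ± 0.41 (SD, n = 6 each). Avpr1a, at 0.512 ± 0.132, and Oxtr, at 0.423 ± 0.129, were the only neighbours in this order whose libraries overlapped, and Agtr2 was last with 0.109 ± 0.054 CPM per kb. In iKO libraries Agtr1a reached 16.2 ± 1.34 and Avpr1a 0.977 ± 0.148 CPM per kb.

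The controls are of 2 kinds, and the iKO group can be set against each, with the iKO libraries shared between both. Against the 4 tamoxifen controls, with the same agent, the log2 fold change of Agtr1a was 0.80 ± 0.08 (SE). Against the 2 corn oil controls, with the same genotype, it was 1.01 ± 0.12, and the gene was called both times. Avpr1a was higher by 0.78 ± 0.20 and 1.21 ± 0.29 and was called neither time. Agtr1b was lower in the iKO group against both kinds, at -0.59 ± 0.16 and -0.39 ± 0.21, and was not called. Oxtr differed in sign, at 0.12 ± 0.22 against tamoxifen controls and -0.54 ± 0.27 against corn oil controls. These comparisons called 222 genes (1.35%) and 24 genes (0.146%) of all tested, with Agtr1a alone of the 7 in each.

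**Figure D5:**
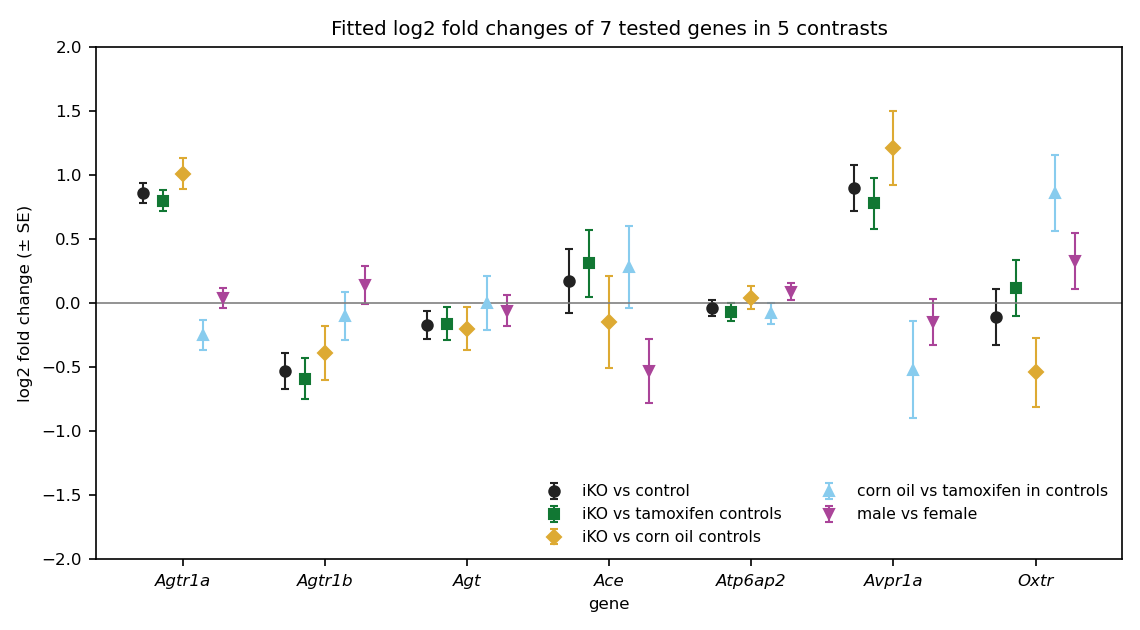
Fitted log2 fold changes ± SE (vertical axis) of the 7 tested genes (horizontal axis) in 5 comparisons, 3 of which share the iKO libraries. Agtr1a and Avpr1a lie above 0 against both kinds of control; Oxtr lies at 0.86 for corn oil over tamoxifen controls, where Agtr1a and Avpr1a lie at -0.25 and -0.52.

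Comparisons that did not guide the choice of genes were tested with edgeR over all genes. Between corn oil and tamoxifen controls 0 of 16791 genes (0%) were called, with 2240 at an unadjusted p under 0.05 and 195 called by DESeq2. DESeq2 gave no adjusted p to Agtr1a, Agtr1b, Agt, Ace, Avpr1a and Oxtr, and did not call Atp6ap2 (adjusted p = 0.703). In edgeR, Oxtr was the 1 gene of the 7 with an unadjusted p under 0.05. Its level was 2.77 ± 0.0109 CPM in the 2 corn oil controls and 1.65 ± 0.29 in the 4 tamoxifen controls, and the ranges did not overlap (2.76 to 2.78 and 1.24 to 1.91). The log2 fold change was 0.86 ± 0.30 (SE, edgeR, adjusted p = 0.273), which does not pass the threshold. In these controls agent, genotype and the range of sample numbers in the labels cannot be told apart. Among the iKO libraries, all with tamoxifen, iKO 6 was as high at 2.83 CPM, and iKO 1 to 5 were at 1.44 to 1.70 CPM. Agtr1a was at 23.0 ± 1.31 CPM in corn oil and 25.9 ± 2.84 in tamoxifen controls, with a log2 fold change of -0.25 ± 0.12 (SE, edgeR, adjusted p = 0.417). For Avpr1a the difference was -0.52 ± 0.38 (SE, edgeR, adjusted p = 0.571).

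Between the sexes 9 genes of 16384 (0.0549%) were called and 0 of the 7, which also had 0 unadjusted p-values under 0.05 in edgeR and 0 calls in DESeq2, where Avpr1a and Oxtr received no adjusted p. Ace came nearest, lower in males by 0.53 ± 0.25 on the log2 scale (SE, edgeR, adjusted p = 0.904), and by 0.29 without iKO 1. Female iKO libraries had 13.1 ± 5.57 CPM of Ace and male iKO libraries 7.16 ± 1.06 (SD, n = 3 each), and the control sexes overlapped, at 6.04 and 11.2 CPM in females and 6.02 to 10.2 CPM in males. Oxtr was higher in males by 0.33 ± 0.22 (SE, edgeR, adjusted p = 0.904).

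The iKO difference itself did not pass a test for a difference between the sexes for any of the 7 (0 with an unadjusted p under 0.05 in edgeR, 0 called by DESeq2), and 0 of 16384 genes (0%) did so, with 589 at an unadjusted p under 0.05 in edgeR and 2 called by DESeq2. For Agtr1a the interaction was 0.01 ± 0.17 (SE, edgeR, adjusted p = 0.998), with 24.6 ± 2.66 and 44.4 ± 5.29 CPM in female controls and iKO libraries (SD, n = 2 and 3) and 25.1 ± 3.16 and 45.6 ± 2.38 in males (n = 4 and 3). For Avpr1a it was -0.06 ± 0.39 and for Ace -0.75 ± 0.46 (SE, edgeR, adjusted p = 0.993 and 0.945).

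Among themselves, Agtr1a and Avpr1a varied together. Their log2 CPM correlated at r = 0.95 over the 12 libraries, a value that includes the difference between the groups. After subtracting each group's mean r was 0.84 over the 12 libraries, and of 14278 named genes Agtr1a then held place 7 by likeness to Avpr1a and Avpr1a place 57 by likeness to Agtr1a, ranks that were looked up after the values were seen. Without iKO 1, r was again 0.84 over the other 11 libraries, with places 22 and 65. The genes most like Agtr1a over all libraries were Stk32a (r = 0.99), a protein kinase gene, Chrna6 (0.99), a nicotinic receptor subunit, and Ism1 (0.97). These values also include the difference between the groups: the log2 fold changes of the same genes, iKO over control, were 1.32, 1.09 and 0.74, each called. After subtracting group means the genes most like Agtr1a were Ube2e2 (0.95), a ubiquitin-conjugating enzyme, Npat (0.93), a regulator of histone genes, and Pde11a (0.91), a phosphodiesterase. The genes most like Avpr1a over all libraries were Agtr1a (0.95), Pbx3 (0.94), a homeobox gene, and Pag1 (0.94). After subtraction they were Setd5 (0.93), Tmem72 (0.88) and Camk4 (0.87), a calmodulin-dependent kinase. These correlations are descriptions over 12 libraries. Without iKO 1, a setting chosen after seeing the data, those of the genes named here were 0.94 to 0.99 before and 0.86 to 0.93 after subtraction.

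The rest of both hormone systems comprised 25 further genes of enzymes, receptors and hormones. Among 19 tested, edgeR called 0 in either direction, where 0.946% of all genes tested were called. It gave 1 an unadjusted p under 0.05, against 9.52% of all genes, and DESeq2 called 0. This list was chosen with earlier results of the comparison known, so its values are a description without a test. The median log2 fold change of the 19 was -0.06, and 7 were positive. The 6 that were too low to test were the hormone genes Avp and Oxt, the receptor genes Avpr1b and Avpr2, renin (Ren1) and aldosterone synthase (Cyp11b2), with 10, 4, 6, 29, 13 and 1 counts over all 12 libraries. Messages for vasopressin, oxytocin and renin were at or near the limit of detection at this depth. The gene with the smallest p was Mtus1, which encodes a protein that binds the AT2 receptor. It was at 189 ± 4.91 CPM in controls and 167 ± 15.3 in iKO libraries (SD, n = 6 each). Its log2 difference was -0.17 ± 0.06 (SE). Lnpep, the angiotensin IV-binding aminopeptidase, was at 507 ± 25.9 CPM in controls and 473 ± 71.6 in iKO libraries (SD, n = 6 each). Mas1, the receptor for angiotensin 1-7, was at 1.04 ± 0.107 and 0.874 ± 0.118 CPM.

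Downstream of AT1, V1A and oxytocin receptors, 24 genes of Gq signalling were read. Called were 0 in either direction (edgeR), where 0.946% of all genes tested were called. At an unadjusted p under 0.05 were 8, 3 of them higher, where 1559 of all 16384 genes (9.52%) were under it. This list was also chosen with earlier results of the comparison known, so its values are a description without a test. The median log2 fold change of the 24 was -0.05, and 11 were positive. Trpc6, a cation channel opened by diacylglycerol, had the smallest p. It was at 36.4 ± 5.07 CPM in controls and 27.8 ± 3.24 in iKO libraries (SD, n = 6 each). Its log2 difference was -0.39 ± 0.10 (SE). DESeq2 called 2 of the 24, Trpc6 and the protein kinase C gene Prkcd, both lower.

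Atp6ap2 was also read beside the vacuolar proton pump it belongs to. Of 18 genes of the pump, with the accessory protein Atp6ap1 and its relative Atp6ap1l, 1 was called higher and 0 lower. Over all genes tested, 0.537% were called higher and 0.409% lower. The median log2 fold change of the 18 was 0.03, and 13 of 18 were positive. This list was chosen with earlier results of the comparison known, so its call is a description without a test. The called gene was Atp6ap1l, which rose from 5.73 ± 0.874 CPM in controls to 12.2 ± 0.514 in the iKO group (SD over 6 libraries). Its log2 difference was 1.07 ± 0.10 (SE). Controls were at 4.27 to 6.79 CPM of Atp6ap1l and iKO libraries at 11.4 to 12.8.

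Markers of the cell types that could carry these receptors were read beside them. The cell type lists were also chosen with earlier results of the comparison known, so their calls are a description without a test. Of all genes tested, 0.946% were called. General sensory neuron markers had 0 of 11 called in edgeR or DESeq2 (0 at an unadjusted p under 0.05), with a median log2 fold change of 0.05. Per 1000 CPM of their sum, Agtr1a was at 1.35 to 2.17 in controls and 2.85 to 3.45 in iKO libraries, and Avpr1a was at 0.0622 to 0.142 and 0.154 to 0.197, so both stayed apart. Agtr1b overlapped on that scale, at 0.445 to 0.646 and 0.311 to 0.511. AT1 receptors are also known from the muscle cells of vessels. Of 9 mural cell markers 0 were called (edgeR, 1 at an unadjusted p under 0.05, and DESeq2 called Rgs5 lower), and their sums were 380 to 442 CPM in controls and 345 to 463 in iKO libraries. Without iKO 1, at 463, the other 5 iKO libraries had 345 to 364 CPM and lay below every control. Agtr1a per 1000 CPM of mural markers was at 56.6 to 67.4 in controls, at 82.8 in iKO 1 and at 122 to 136 in the other 5 iKO libraries.

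Single markers of subsets of sensory neurons moved in both directions. Their lists were chosen with earlier results of this comparison known, so their calls are a description without a test. Beside them, 0.537% of all genes tested were called higher and 0.409% lower. Peptidergic nociceptors had 1 of 8 called, Smr2, which fell from 5.05 ± 1.21 CPM in controls to 2.53 ± 0.58 in iKO libraries (SD over 6). In that list 1 of 8 was positive and the median log2 fold change was -0.06. Nonpeptidergic nociceptors had 2 of 9 called, both lower, Grik1 (488 ± 68.6 to 264 ± 24.9 CPM) and Otoa (13.1 ± 2.39 to 7.56 ± 0.982 CPM), while 4 of the 9 were positive and the median was -0.14. Of 7 itch neuron markers 3 rose, Cysltr2, Sst and Nts, by 0.55 ± 0.10, 0.62 ± 0.11 and 0.58 ± 0.12 on the log2 scale (SE). The other 4 were negative and the list's median was -0.02. Of 7 markers of large-diameter neurons, 5 of them positive with a median of 0.03, Ntrk3 rose from 467 ± 48.7 to 689 ± 118 CPM. The Ntrk3 call was lost without control 1 (0.55), control 4 (0.56), iKO 3 (0.56), iKO 4 (0.55), iKO 5 (0.58) or iKO 6 (0.60). Likewise the Nts call was lost without control 2 (0.55), control 3 (0.59), iKO 4 (0.56) or iKO 6 (0.51), and the Smr2 call without control 2 (-0.78). The lists for C-fibre low-threshold mechanoreceptors (5 genes), satellite glia (7), myelinating Schwann cells (7), endothelium (8), fibroblasts (8) and macrophages (8) had 0 called in edgeR, with 2, 0, 2, 0, 1 and 0 at an unadjusted p under 0.05. Of the mechanoreceptor markers DESeq2 called Piezo2, higher. The sums of this list were 961 to 1153 CPM in controls and 1017 to 1377 in iKO libraries. Without iKO 1, at 1017, the other 5 iKO libraries had 1248 to 1377 CPM and lay above every control. Which of these cells carried Agtr1a or Avpr1a was not tested.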

How the data were processed

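Poly(A) RNA of dorsal root ganglia was sequenced in 12 libraries with a kit that does not record strand, per the labels' protocols. The authors deposited raw counts, 1 table of 55416 genes per library, and the submitters' processing notes name featureCounts 2.0.1, the aligner STAR 2.7.8a, bcl2fastq 2.20.0.422 and the GRCm39 build. Not given in the sources used here are the annotation release, the read length and the counting options, and the labels do not name the floxed exons.

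Symbols came from GENCODE M21 (GRCm38) by gene identifier, for 52083 identifiers (94%) with 99.67% of counts; all 8 genes matched. Because the builds differ, that annotation gave only names, chromosomes, exon lengths, overlaps and transcript sequences, whose alignment used biopython 1.88. Counts were scaled by TMM (factors 0.973 to 1.06) and filtered with filterByExpr, which kept 16384 genes (16791 within the controls). Tests were edgeR 4.0.16's quasi-likelihood tests in R 4.3.3, 2-sided and robust. For iKO against control and between the sexes the terms were sex and group (9 residual degrees of freedom). The other fits had fewer residual degrees of freedom. The interaction added its own term, and the fit within the controls had sex and agent. Comparisons with each kind of control had sex and a term for iKO, tamoxifen control and corn oil control. Adjustment of p-values was by Benjamini-Hochberg over the whole table, and called means adjusted p under 0.05. CPM uses TMM-scaled totals, and correlations use log2 CPM with a prior count of 2. Totals of 13943784 to 20377766 counts make counting error small for Atp6ap2 and Agtr1a; it is larger at the lower counts of the other 6 genes. The biological coefficient of variation was 12.8%. No 2 libraries were identical.

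The script was tested on simulated data. The members and the gene lists were chosen with earlier results of these data known. All 8 genes are named, as are Prdm12, up to 4 called genes of each list by smallest p (or the gene with the smallest p), and the 3 genes most like Agtr1a and Avpr1a by Pearson correlation; unnamed gene models and pseudogenes were left out of the latter. Genes called by DESeq2 alone, and Lnpep, Mas1 and the untested genes, were named after their values were seen. Alternatives were DESeq2 1.42.0, limma-voom (limma 3.58.1), DESeq2's size factors, no filter, no sex term, a replicate block, sample-number sets, and leaving out libraries. Same-numbered libraries correlated at -0.153 to 0.217, over 0.1 in 3 of 6 pairs, so the numbers were not taken as pairs.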

Additional observations from a re-analysis of the deposited data

Results flagged for a closer look

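Of 27 groups of 4 or 6 libraries examined for a library far from its group, 2 had a gap to the nearest library above the 95% critical share of the group's range (0.625 for 6 libraries, 0.829 for 4). Chance alone gives about 1 in 20. Oxtr in iKO 6 was at 2.83 CPM, with a gap of 0.814 of the iKO range to the next library. Prdm12 in iKO 1 was at 18.6 CPM, the lowest of the iKO group, with a gap of 0.63 of the range.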

How the results depend on the processing

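The log2 fold change of Agtr1a between iKO and control was 0.81 to 0.94 and called under all 23 alternatives run. Avpr1a kept its direction and lost its call with the replicate block (1.00), without the corn oil controls (0.79), in replicates 1 to 4 alone (0.82) and in replicates 5 and 6 alone (1.18); with single libraries left out it was 0.84 to 1.04. Agtr1b lay between -0.66 and -0.46 and was called in 4 of 23 alternatives, with DESeq2, without the filter, without both iKO 1 and control 6 and without iKO 4; DESeq2 also called it against tamoxifen controls (-0.59). Prdm12 was at -2.13 in replicates 5 and 6 alone, where it was not called. The replicate block, for numbers that were not taken as pairs, called 79 genes and changed no other call of the 7 genes. Controls correlated best with the iKO library of their own number in 3 of 6 pairs, which leaves the pairing unsettled.

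The 155 genes called between iKO and control became 294 with DESeq2, 253 without the filter, 235 without the corn oil controls, 35 in replicates 1 to 4 alone, 82 in replicates 5 and 6 alone and 341 without both iKO 1 and control 6, and 92 (without control 1) to 364 (without iKO 1) with single libraries left out. Between the sexes DESeq2 called 17 genes, and 8 to 11 were called with single libraries left out. DESeq2 called 2 genes for the interaction, 195 for corn oil against tamoxifen (6 in male controls only, with edgeR), 594 against tamoxifen controls and 68 against corn oil controls.

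Directions that turned all belonged to differences that were not called. Between the sexes Agtr1a was at -0.01 and Agt at 0.01 without iKO 1, in ranges of -0.01 to 0.08 and -0.11 to 0.01 with single libraries left out. Agt was at 0.00 for corn oil against tamoxifen with DESeq2 and in male controls. Between iKO and control Ace was at -0.40 in replicates 5 and 6 alone and at -0.02 without control 1 (-0.02 to 0.29 with single libraries left out). Atp6ap2 was at 0.06 in replicates 5 and 6 alone and 0.01 without both iKO 1 and control 6. Oxtr was at 0.13 without the corn oil controls. The cause was not tested. In replicates 1 to 4 alone the itch list went from 3 calls to 0 and Ntrk3 and Smr2 lost theirs; in replicates 5 and 6 alone Sst, Nts, Smr2 and Otoa did. Nts was also not called without the corn oil controls, nor Sst without the sex term or with the replicate block (0.61). Marker sums and correlations without iKO 1 were added after seeing the data. Depth limits Agtr2, Avpr1a and Oxtr most.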
